A study of Mus musculus with 4 samples.

Results

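Metallothioneins and antioxidant enzymes were examined as 10 genes, Mt1, Mt2, Sod1, Sod2, Sod3, Cat, Gpx1, Gpx3, Hmox1 and Nqo1, in sorted adipose cells of PPARγ mutant mice. The members were all probes that carry these gene symbols in the platform annotation, which gave 14 of the 45281 probes on the array and 10 of the 19057 genes named by them. Of these, 11 probes were above the detection limit on at least 1 array and were tested, and they covered all 10 genes. None of the 11 passed the test in either comparison, and few probes of the array did. Of the 17379 probes tested, 3.53% passed in the first comparison named below and 3.48% in the second. Log2 differences ran from -0.55 (Mt2) to 1.25 (Hmox1) in GFP+ cells labelled PPARG null against PPARG het, and from -1.12 (Mt2) to 1.44 (Cat) against GFP− cells labelled PPARG null.

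RNA was measured on Illumina Mouse-6 V2 BeadChip arrays, on which each probe reports the brightness of labelled RNA bound to it. There were 4 libraries, each from mouse adipose tissue at an age of 2 months. The strain is labelled Black 6, while the methods give a mixed C57BL/6-129/SV background, and the sorted cells are described there as stromal vascular cells, the fraction that is spun down apart from floating fat cells. Of the libraries, 2 were from GFP+ cells labelled PPARG null (numbers 1 and 3), 1 was from GFP+ cells labelled PPARG het (number 2) and 1 was from GFP− cells labelled PPARG null (number 3). In AdipoTrak mice a tTA driver placed in the Pparg locus switches on H2B-GFP, and Cre where the TRE-Cre transgene is carried, so that GFP marks cells of the adipose progenitor lineage and the controls also carry an altered Pparg allele. The methods describe Sox-PPARγ-LOF mice, in which Sox2-Cre deletes floxed Pparg in the whole body, while the results section describes AT-PPARγ-LOF mice, in which TRE-Cre, also carried by AdipoTrak controls, deletes it, and the labels leave this unsettled. The methods describe several mice per group and arrays in triplicate, but the labels do not tie mice to libraries, so that p-values measure only the spread between these libraries, which may be technical.

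Metallothioneins are small cysteine-rich proteins that bind zinc, copper and cadmium, and their genes are switched on by metals, glucocorticoids and oxidative stress. Superoxide dismutases turn superoxide into hydrogen peroxide, which catalase and the glutathione peroxidases then remove. Hmox1 and Nqo1 are classical targets of the transcription factor Nrf2, which cells use to answer oxidants and electrophiles. In adipose tissue these enzymes are known from fat cells, stromal cells and macrophages alike.

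The targeted gene was read before the members. The brighter of the tested Pparg probes had intensities of 3217 and 2479 for the pair labelled null GFP+, against 188 for that labelled het GFP+ and 209 for that labelled null GFP−. The dimmer probe read 495 and 363, against 129 and 101 in the same order. Pparg signal thus ran against the genotype labels on both probes, with log2 differences of 4.84 and 3.12 for null GFP+ against het GFP+. The cause was not tested, and it is not known here whether the probes fall inside the deleted stretch of the gene. Intensities are printed as deposited and still hold the array background, whereas log2 differences and folds are taken after background correction, so that for dim probes they exceed the ratio of the printed intensities. Group names stand for the labels of the libraries and not for a genotype checked in the data, and every direction is by label only.

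Promoter sequence was available from RefSeq (GRCm38.p6) for 8 of the 10 members, but not for Sod3 or Hmox1, which were not searched. In the 250 bases before the start site, the core of the metal response element, TGCACNC or TGCGCNC, was searched on both strands, together with the core of the antioxidant response element, TGACNNNGC. Of 32851 promoters of the same length, 21.4% held a metal core and 10.2% held an antioxidant core. Among the members, Mt1 and Mt2 held a metal core, Mt2 and Sod1 held an antioxidant core, and the other 5 held no match in this window. Mt1 and Mt2 lie next to each other on chromosome 8, with 0 annotated genes between them. The windows of Mt2, the metallothionein whose signal differed most, and of Cat, the member whose call changed with the processing, are printed here, each 5′ to 3′ on the gene's strand. Capitals mark the matches.

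Mt2 (chr8:94172368-94172617, plus strand): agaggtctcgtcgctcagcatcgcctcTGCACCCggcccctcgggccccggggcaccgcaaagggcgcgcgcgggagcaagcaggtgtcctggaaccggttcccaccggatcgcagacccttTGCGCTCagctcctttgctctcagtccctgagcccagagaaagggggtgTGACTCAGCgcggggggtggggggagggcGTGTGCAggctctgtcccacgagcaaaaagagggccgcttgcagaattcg
Cat (chr2:103485154-103485403, minus strand): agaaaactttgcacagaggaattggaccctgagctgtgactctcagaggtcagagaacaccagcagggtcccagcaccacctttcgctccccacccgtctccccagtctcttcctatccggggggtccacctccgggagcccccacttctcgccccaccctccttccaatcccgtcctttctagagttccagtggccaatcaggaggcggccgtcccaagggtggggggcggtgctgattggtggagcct

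In Mt2 the metal cores began 223, 128 and 50 bases before the start site, the last of them on the opposite strand, and the antioxidant core began 79 bases before it, with no overlap between matches. The Cat window held neither core. A match describes letters in the window and does not show that a factor binds there.

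Mt1 and Mt2 both read lower in null GFP+ than in het GFP+, within the error of these arrays. In mixed cells such as these, fewer cells of a type and less RNA per cell cannot be told apart. Mt1 read 27829 and 24753 in null GFP+, against 33665 in het GFP+ and 27365 in null GFP−. The Mt1 probe was among the brightest of the array, with 108 of the 45281 probes brighter on average. Against het GFP+, Mt1 was 0.779-fold, with a 95% interval of 0.475 to 1.28 (adjusted p = 0.623 from limma). Against null GFP− it was 0.959-fold (0.584 to 1.57), and the null GFP− value fell between the null GFP+ libraries. Mt2 read 348 and 229 in null GFP+, against 366 in het GFP+ and 499 in null GFP−. Both null GFP+ values lay below both others, yet the null GFP+ libraries themselves differed more for Mt2 than for any other tested member, by 0.90 on the log2 scale. The log2 difference of Mt2 was -0.55 against het GFP+ (limma adjusted p = 0.639) and -1.12 against null GFP− (limma adjusted p = 0.339), each with a standard error of 0.44. Without null GFP+ library 1 the difference was -0.997 against het GFP+ and -1.57 against null GFP−, and without library 3 it was -0.10 and -0.67.

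**Figure D1:**
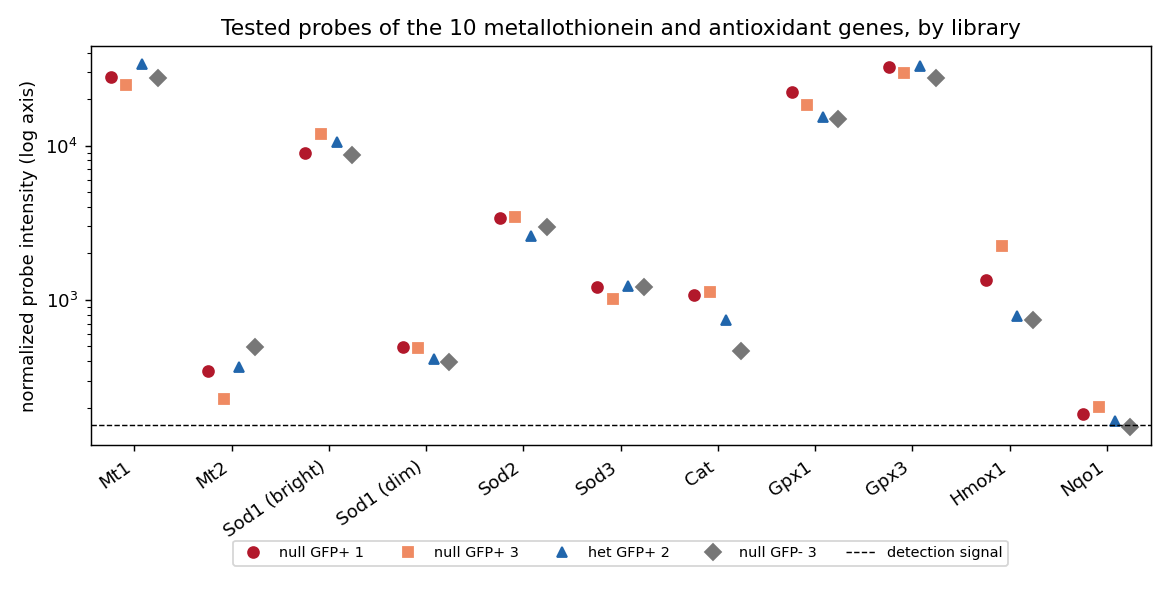
Intensity of each tested member probe in each of the 4 libraries, on a log axis, with null GFP+ (numbers 1 and 3), het GFP+ (number 2) and null GFP− (number 3) side by side and the detection signal of 154 as a dashed line. Hmox1 (1350 and 2238 in null GFP+) and Cat (1084 and 1131 in null GFP+) lay above both other libraries, whereas Gpx3 and Sod3 varied little.

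The superoxide dismutases covered the cytosol (Sod1), the mitochondria (Sod2) and the extracellular space (Sod3), and none of them passed the test. The brighter Sod1 probe read 8884 and 11880 in null GFP+, against 10618 in het GFP+ and 8731 in null GFP−. The het GFP+ value lay between the null GFP+ values, so these groups overlapped. A dimmer Sod1 probe, designed on a cDNA clone, read 498 and 486 in null GFP+, against 418 in het GFP+ and 398 in null GFP−. The brighter and dimmer Sod1 probes differed from het GFP+ in opposite directions, by -0.05 and 0.30 on the log2 scale. Neither passed limma (adjusted p = 0.968 and 0.689), and a further Sod1 probe was not detected on any array. Sod2 read 3371 and 3421 in null GFP+, against 2584 in het GFP+ and 2954 in null GFP−. The null GFP+ values of Sod2 were close together and above both others, 1.33-fold over het GFP+ (0.819 to 2.15, adjusted p = 0.560 from limma) and 1.15-fold over null GFP− (0.713 to 1.87). Sod3 read 1208 and 1016 in null GFP+, against 1232 in het GFP+ and 1205 in null GFP−, which is 0.891-fold of het GFP+ (0.532 to 1.49). The null GFP− value of Sod3 lay between the null GFP+ values. A p that misses the threshold does not show that the levels were equal, and the intervals give the sizes these arrays leave possible.

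Of the enzymes that remove peroxide, catalase differed most. Cat, the peroxisomal enzyme, read 1084 and 1131 in null GFP+, against 739 in het GFP+ and 468 in null GFP−. The null GFP+ values were close together and above both others, and the het GFP+ value lay between. Against null GFP− the log2 difference was 1.44 (standard error 0.27), or 2.71-fold with an interval of 1.67 to 4.39, at an unadjusted p of 0.00318 and an adjusted p of 0.0700 from limma. It passed limma with no background correction (adjusted p = 0.0166), with normexp without detection p-values (0.0186), with an offset of 50 (0.0360) and by eBayes with trend (0.0254), and over all alternatives the adjusted p ran up to 0.629, by the methods' t-test. Against het GFP+ the log2 difference of Cat was 0.65, with a standard error of 0.27 (limma adjusted p = 0.350), and it passed under none of the alternatives with a test, where the adjusted p ran from 0.196 to 0.616. A second Cat probe was not detected on any array.

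Gpx1, the widespread cytosolic glutathione peroxidase, read 22286 and 18236 in null GFP+, against 15263 in het GFP+ and 14815 in null GFP−. Both null GFP+ values lay above both others, 1.32-fold over het GFP+ (0.786 to 2.23, adjusted p = 0.597 from limma) and 1.36-fold over null GFP− (0.809 to 2.29, adjusted p = 0.606 from limma). Gpx3, the secreted form found in plasma, read 32096 and 29333 in null GFP+, against 32616 in het GFP+ and 27229 in null GFP−. Gpx3 had the smallest spread of the tested members, its highest library 1.20 times its lowest, and 83 of the 45281 probes were brighter on average. Its log2 difference was -0.09 against het GFP+ and 0.17 against null GFP−, with intervals from -0.79 to 0.62 and from -0.53 to 0.88.

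Of the Nrf2 targets, Hmox1 had the largest difference against het GFP+ among the members. Hmox1, which breaks down haem and releases iron and biliverdin, read 1350 and 2238 in null GFP+, against 785 in het GFP+ and 747 in null GFP−. Both null GFP+ libraries were above both others, and they also differed from each other, by 0.77 on the log2 scale. The log2 difference was 1.25 against het GFP+, with a standard error of 0.40 (limma, unadjusted p = 0.0268, adjusted p = 0.236), or 2.37-fold with an interval of 1.16 to 4.85. Against null GFP− it was 1.33 (standard error 0.40, unadjusted p = 0.0212, adjusted p = 0.207 from limma). Neither passed after adjustment, and over the alternatives the adjusted p ran from 0.104 to 0.743 against het GFP+ and from 0.0861 to 0.764 against null GFP−. Without null GFP+ library 3 the difference was 0.86 against het GFP+ and 0.94 against null GFP−, and without library 1 it was 1.63 and 1.71.

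Nqo1, a quinone reductase, was close to the detection signal in every library. It read 183 and 204 in null GFP+, against 164 in het GFP+ and 150 in null GFP−, a value under that signal. Against null GFP−, Nqo1 was 1.75-fold after background correction, with an interval of 1.04 to 2.96 (adjusted p = 0.297 from limma). With the null GFP− value raised to the detection signal, it was at least 1.25-fold higher on the deposited intensities. After background correction this bound was 1.62-fold, which lies above the lower limit of the interval. Against het GFP+ the log2 difference of Nqo1 was 0.49 (adjusted p = 0.519 from limma). The second Nqo1 probe was not detected on any array. Such bounds set means of log2 values against each other, with any value of the dimmer group under the detection signal of 154 raised to it. The bounds are given on both scales because the background correction widens them. They allow for dim signal only and not for the spread between libraries, so a limma interval can reach below them.

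**Figure D2:**
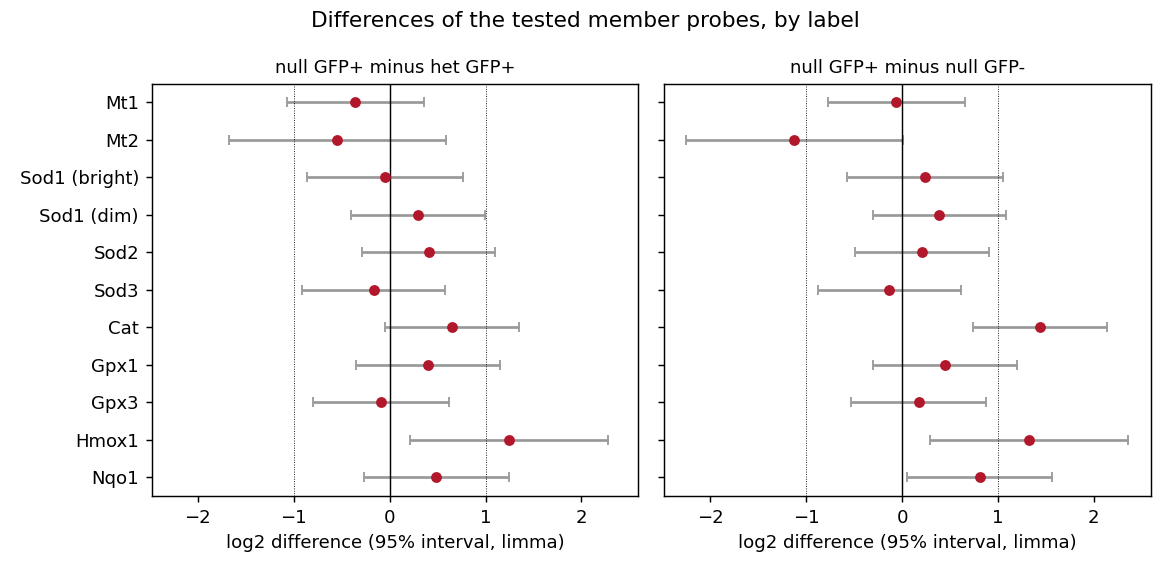
Log2 differences of the 11 tested member probes, by label, with 95% intervals from limma, for null GFP+ minus het GFP+ (left) and null GFP+ minus null GFP− (right); dotted lines mark a 2-fold difference. The intervals of Hmox1 exclude 0 on both sides of the plot, as do those of Cat and Nqo1 against null GFP−, and 0 of the 11 probes had an adjusted p under 0.05 in either panel.

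As a group, then, 0 of 11 member probes passed limma at an adjusted p under 0.05 in null GFP+ against het GFP+, where 3.53% of the 17379 tested probes did. At an unadjusted p under 0.05 there was 1 member, Hmox1, against 15.7% of all tested probes. In null GFP+ against null GFP−, 0 of 11 passed, where 3.48% of tested probes did, and 3 had an unadjusted p under 0.05 (Cat, Hmox1 and Nqo1), against 14.9% of all tested probes. The median log2 difference of the members was 0.30 against het GFP+ and 0.24 against null GFP−, beside medians of 0.05 and 0.04 over all tested probes. In 6 of 11 probes both null GFP+ libraries lay above het GFP+ and in 4 below, while 41.3% and 33.7% of all tested probes did so. Against null GFP− these were 8 and 1 of 11, beside 39.9% and 33.1% of all tested probes. The same null GFP+ libraries enter both comparisons.

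Over the 4 libraries the highest and lowest values of a member lay 0.45 apart at the median on the log2 scale, beside 0.61 for all tested probes. Only Mt2, Cat and Hmox1 spanned more than 1 on that scale, 27.3% of the member probes, which compares with 24.1% of all tested probes. Between the null GFP+ libraries alone the median absolute log2 difference was 0.27 for the members and 0.26 for all tested probes.

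The het GFP+ and null GFP− libraries differed in both genotype label and sort and were 1 library each, so that no test was made. None of the 11 member probes differed by over 2-fold between them, where 3.57% of tested probes did. Cat was furthest apart, at 739 in het GFP+ against 468 in null GFP−, a log2 difference of 0.79, followed by Mt2 at 366 against 499, a log2 difference of -0.58. Hmox1 read 785 in het GFP+ and 747 in null GFP−, a log2 difference of 0.08.

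Genes that work beside the members were read in the same comparisons. Of 90 genes listed for these pathways, 72 were tested. In null GFP+ against het GFP+, 0 were higher and 2 were lower at an adjusted p under 0.05 from limma, and 70 did not pass, whereas over all 9975 genes 1.31% were higher and 2.61% were lower. In null GFP+ against null GFP−, 4 were lower, 0 were higher and the other 68 did not pass, beside 2.64% of all genes lower and 1.30% higher. The median log2 difference of the 72 genes was 0.00 against het GFP+ and 0.11 against null GFP−, and over all genes it was 0.05 and 0.02.

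None of the 14 tested glutathione genes passed against het GFP+, with a median log2 difference of 0.08. Ggt5, a transferase that cleaves glutathione conjugates, had a log2 difference of 1.44 (adjusted p = 0.122 from limma). Gss, glutathione synthetase, read 197 and 201 in null GFP+, against 136 in het GFP+, which is not well above background. The log2 difference of Gss was 1.27, with an interval of 0.57 to 1.96 (limma adjusted p = 0.0967). The bound was at least 1.29-fold higher on the deposited intensities and at least 1.72-fold after background correction, without allowing for the spread between libraries. Slc7a11, the cystine transporter, named after its value was seen, read 105 and 111 in null GFP+ against 133 in het GFP+ and 196 in null GFP−, and was at least 1.27-fold lower than in null GFP− on the deposited intensities and at least 1.68-fold lower after background correction (limma adjusted p = 0.0347). None of the 10 tested thioredoxin and peroxiredoxin genes passed either, with Txn2, the mitochondrial thioredoxin, at 0.59 and Txnip, an inhibitor of thioredoxin, at 0.56 on the log2 scale against het GFP+.

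The Nrf2 pathway has its own regulators. Nfe2l2, which encodes Nrf2, had a log2 difference of -0.58 against het GFP+ (adjusted p = 0.561 from limma) and 0.05 against null GFP−, and Bach1, a repressor of Hmox1, had one of 0.33 (adjusted p = 0.647 from limma). None of the 8 tested regulators passed. Of the enzymes that supply NADPH, 5 were tested and none passed, with Idh2, the mitochondrial isocitrate dehydrogenase, at 0.80 and Tkt, the transketolase of the pentose phosphate pathway, at 0.47 on the log2 scale against het GFP+.

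Genes of zinc and copper handling had a median of 0.19 against het GFP+ over 10 tested genes, none of which passed. Mtf1, the metal-sensing factor that binds metal response elements, had a log2 difference of 0.60 (adjusted p = 0.402 from limma). Slc31a1, a copper importer, had one of 0.52. Among 9 tested glucocorticoid-responsive genes none passed. Hsd11b1, the enzyme that regenerates active glucocorticoid, read 13744 and 8246 in null GFP+, against 3480 in het GFP+ and 3207 in null GFP− (log2 difference 1.64, adjusted p = 0.128 from limma, against het GFP+). Sgk1, a kinase gene induced by glucocorticoids, read 21287 and 14525 in null GFP+, against 6330 in het GFP+ and 6236 in null GFP− (1.49 against het GFP+, adjusted p = 0.118 from limma). Both lay above the other libraries without passing, and the median of the list was -0.21 against het GFP+ and 0.28 against null GFP−.

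Against het GFP+, 1 of 12 tested iron and haem genes and 1 of 4 tested phagocyte NADPH oxidase genes were lower. Against null GFP−, 1 and 2 of them were lower. Cd163, the haemoglobin scavenger receptor of macrophages, read 129 and 126 in null GFP+, against 748 in het GFP+ and 465 in null GFP−. On the deposited intensities it was at least 4.85-fold lower than in het GFP+ and at least 3.01-fold lower than in null GFP−. After background correction these bounds were 10.6-fold (limma adjusted p = 0.00926) and 6.02-fold (limma adjusted p = 0.0139). The other iron and haem genes, of 12 tested, did not pass, and of these 3 are given that were picked after their values were seen. Slc40a1, the iron exporter, had a log2 difference of 1.51 against het GFP+ (limma adjusted p = 0.223). The iron store genes Fth1 and Ftl1 had log2 differences of -0.04 and 0.06 against het GFP+. Rac2, a GTPase of the leukocyte oxidase, read 130 and 117 in null GFP+, against 640 in het GFP+ and 709 in null GFP−. On the deposited intensities it was at least 4.14-fold lower than in het GFP+ and at least 4.59-fold lower than in null GFP−, and after background correction these bounds were 8.84-fold (limma adjusted p = 0.0102) and 9.97-fold (limma adjusted p = 0.0122). Ncf4, another oxidase subunit, named after its value was seen, had a log2 difference of -3.10 against null GFP− (adjusted p = 0.0419 from limma) and one of -2.78 against het GFP+ (limma adjusted p = 0.0544), which missed the threshold. Cybb and Ncf1 of the same list were not detected.

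**Figure D3:**
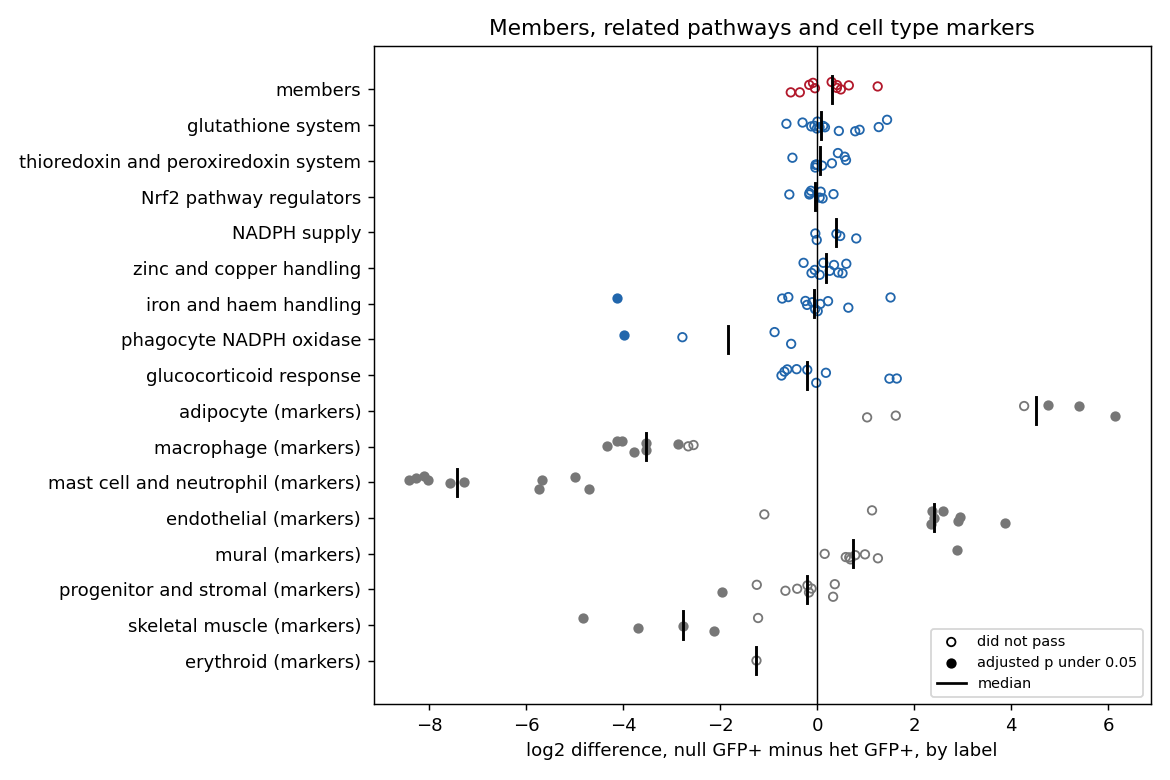
Log2 difference of null GFP+ minus het GFP+, by label, for the tested member probes, for genes of 8 related pathways and for marker genes of 8 cell types; each point is a probe or gene, filled where the adjusted p from limma is under 0.05, and the bar is the list's median. Of the members and pathway genes only Cd163 and Rac2 are filled, and the medians of these lists lie between -0.21 and 0.39 except for the phagocyte oxidase at -1.83, while the mast cell and neutrophil markers lie near -7.43 and the adipocyte markers near 4.51 at the median.

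Markers of several cell types differed between the same libraries by far more than the members did. All 10 mast cell and neutrophil markers were lower against het GFP+, their summed intensity being 1445 and 1422 in null GFP+, against 89155 in het GFP+ and 88710 in null GFP−. Of 9 tested macrophage markers, 7 were lower, with Cd163 of the iron and haem list among them. The sums of the 9 were 4369 and 2065 in null GFP+, against 22381 in het GFP+ and 13686 in null GFP−. Of 6 tested adipocyte markers, 3 were higher, with sums of 42625 and 54445 in null GFP+, against 19453 in het GFP+ and 23572 in null GFP−. Most of that sum was Lpl, lipoprotein lipase, named after its value was seen, at 36121 and 40207 in null GFP+, against 18742 in het GFP+ and 22920 in null GFP−, which did not pass (limma adjusted p = 0.168). The 3 that passed were Adipoq, Plin4 and Car3. Adipoq, the fat cell hormone adiponectin, read 819 and 3345 in null GFP+, against 126 in het GFP+ and 122 in null GFP−. Of 9 tested endothelial markers, 7 were higher. Tek, named after its value was seen, went the other way without passing (limma adjusted p = 0.231 against het GFP+). Tek read 3061 and 2097 in null GFP+, against 5293 in het GFP+ and 3815 in null GFP−. Among 8 tested mural markers, 1, Notch3, was higher and 7 did not pass. The median log2 difference of the mural list was 0.73 against het GFP+ and 0.17 against null GFP−. Summed mural intensities were 6109 and 10266 in null GFP+, against 4522 in het GFP+ and 8135 in null GFP−. Progenitor and stromal markers were bright in every library, with sums of 167770 and 183296 in null GFP+, against 213384 in het GFP+ and 217169 in null GFP−, and 1 of 9, Pi16, was lower. The only erythroid marker tested, Hba-a1, read 4069 and 3256 in null GFP+, against 8550 in het GFP+ and 4773 in null GFP−, and Alas2, Slc4a1 and Epb42 were not detected. Of 5 tested skeletal muscle markers, 4 were lower against het GFP+ and 1 against null GFP−. Their sums were 691 and 750 in null GFP+, against 3334 in het GFP+ and 1010 in null GFP−. The part of these markers' cells in the values of Hmox1, Cat and the other members was not tested.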

How the data were processed

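The authors deposited intensities of 45281 probes for the 4 libraries, on a linear scale. The sources used here do not state how they were normalized, but the arrays share a distribution, with sorted values within 0.380% of their mean. Detection p-values, deposited in a second table, were used without regard to library, and 4 signal columns beside them, which match no label, were not used. Normexp background correction (limma 3.58.1, R 4.3.3) was fitted on that shared distribution, matched by rank to the detection p-values (background mean 108, SD 13.6). After adding 16 the values were put on a log2 scale and quantile normalized. The added 16 understates changes of dim probes. Tests covered the 17379 probes detected at p under 0.01 on 1 array or more. In gene lists the brightest tested probe stood for each of 9975 genes.

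A limma model (lmFit, eBayes) with 3 groups was fitted to all 4 libraries, two-sided, adjusted by Benjamini-Hochberg over the tested probes. Its 1 residual degree of freedom comes from null GFP+, and 4.03 prior degrees of freedom are added, so lone libraries are assumed to vary as null GFP+ did. The number of arrays limits the precision. Members, lists and tests were chosen with earlier results of these data known. Besides members, each list contributed up to 3 genes that passed against het GFP+ with the largest differences, or 2 where none passed, and genes outside this rule are named as such. Marker lists are given mainly as counts and sums. Alternatives changed the background correction, the offset, the detection filter, the variance model, the test and the libraries included. Promoters are RefSeq's (GRCm38.p6), and other coordinates are not given because the array files name no build. Figures were drawn with matplotlib 3.10.9.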

Additional observations from a re-analysis of the deposited data

How the results depend on the processing

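In null GFP+ against het GFP+, 0 of 11 member probes passed under every alternative with a test, and all kept their direction there. In null GFP+ against null GFP−, 1 member probe, Cat, passed where 0 had, with no background correction (log2 difference 1.24), with normexp at an offset of 50 that used no detection p-values (1.31), with an offset of 50 alone (1.36), by eBayes with trend (1.44) and by the methods' t-test, unadjusted, with over 2-fold required. The cause was not tested. After Benjamini-Hochberg adjustment the t-test, with 1 degree of freedom, called 0 probes in either comparison (1393 and 1373 at an unadjusted p under 0.05), leaving out 11 probes with identical values in both null GFP+ libraries. Over all tested probes, limma called 613 against het GFP+ and 604 against null GFP−. These were 892 and 836 with no background correction, 940 and 928 with normexp that used no detection p-values, 232 and 240 with detection required on all 4 arrays, where Nqo1 was not tested, and 106 and 0 with no filter on dim probes, where 4837 and 4582 had an unadjusted p under 0.05. In the same order, limma called 728 and 692 with an offset of 50 alone and 867 and 858 by eBayes with trend. The unadjusted t-test with over 2-fold required called 474 and 499. With a null GFP+ library left out no residual degrees of freedom remain, so that only values are given. Without library 1 or library 3, Mt1, the brighter Sod1 probe and Sod3 changed sign in at least 1 comparison, with log2 differences of -0.15 to 0.02 for Mt1 and -0.27 to 0.0039 for Sod3 against null GFP−, and -0.26 to 0.16 for Sod1 against het GFP+. No paired analysis was possible because the groups share only the number 3. Signal over background limits Nqo1, which read close to the detection signal.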
